A study of Mus musculus with 6 samples.

Results

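A group of 121 mouse genes listed under provisional names was examined in testes from which Mdm2 had been removed in the germ line. Their symbols consist of Gm and a number or end in Rik, the names given to predicted genes and to cDNA clones before a function is known. They were picked from 57170 identifiers in 3 steps, on CPM values (a gene's count divided by the library's total, then scaled to a total of 1 M, mega). Of 26568 identifiers with such a symbol, 2112 reached 0.5 CPM in both wild-type libraries, and in 121 of these (5.73%) the mean of the knockout libraries was at most one part in 3 of the wild-type mean. Over all 16416 genes that reached the same level, 3.08% passed that ratio. The fall in the knockout is therefore how these genes were chosen, and each such ratio given here for them is a description and carries no test. The 121 genes are called members. The label under which they were grouped speaks of transcripts lost with germ cells, which was not tested. Some members have near-identical copies, and their values may depend on how shared reads were divided. In 12 members the sum with such copies was not low. In 7 of the 12 the member made up 8.30% to 57.3% of that sum in WT, while in the other 5 it was at most 3.02% and the sum says little. At none of these shares could loss of the member alone have made the sum low, so the 12 sums do not show whether the members fell.

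The samples were whole testes of mice on postnatal day 5, and the assay was bulk sequencing of polyadenylated RNA. Wild-type mice gave 2 libraries, WT-1 and WT-2. Another 4, sKO-1 to sKO-4, carry the label sKO and come from a conditional Mdm2 knockout in germ cells that have not entered meiosis. The labels name neither the Cre driver nor the strain, and they do not state that every library is a different animal. Library totals were 17.99 M to 18.39 M expected counts. In whole tissue, fewer cells of a type and less RNA per cell cannot be told apart.

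MDM2 is the ubiquitin ligase that marks p53 for destruction, and cells that lose it accumulate p53. In the testis of the first postnatal week, seminiferous cords hold somatic Sertoli cells and a small population of germ cells, the gonocytes and spermatogonia from which sperm descend. Germ cells are known for a broad transcriptome that takes in lineage-specific retrogenes, pseudogenes, long noncoding RNAs and multicopy families of the X and Y chromosomes. Many provisional names belong to genes of those kinds. Where copies are almost identical, a short read can match several of them, and a program that shares such reads out assigns each copy an estimate and not an observed count.

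The sequences that show these features are the promoters of 4 members and the base differences between 2 members and their copies. Promoters are windows of 300 bases, from 250 before to 50 after the start, from RefSeq on GRCm38.p6, printed 5′ to 3′ on the gene's strand. Capitals mark any match on either strand to 4 motifs: TTCCCGC (bound by E2F factors of the cell cycle), CACGTG (an E-box of MYC and other basic helix-loop-helix factors), CNCCTCAG (the motif described for the meiosis factor STRA8) and TGACGTCA (the cAMP response element). The first promoter is that of 8030474K03Rik at chrX:101794406-101794705 on the plus strand. It is shown because the window of another member, Gm4779, at chrX:101794396-101794695 on the minus strand, shares 290 of its bases, so that a single stretch lies at the start of 2 members that point away from each other. It holds none of the 4 motifs.
8030474K03Rik: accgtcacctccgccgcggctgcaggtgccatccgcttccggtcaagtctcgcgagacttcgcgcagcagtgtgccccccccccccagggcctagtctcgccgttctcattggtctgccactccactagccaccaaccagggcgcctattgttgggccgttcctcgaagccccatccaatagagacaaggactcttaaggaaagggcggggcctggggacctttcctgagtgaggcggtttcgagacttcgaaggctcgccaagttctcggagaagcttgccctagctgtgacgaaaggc
The second stands for the largest family of members, X-linked genes related to Ott. It is that of Gm15107 at chrX:148180474-148180773 on the plus strand and holds CNCCTCAG at 2 places.
Gm15107: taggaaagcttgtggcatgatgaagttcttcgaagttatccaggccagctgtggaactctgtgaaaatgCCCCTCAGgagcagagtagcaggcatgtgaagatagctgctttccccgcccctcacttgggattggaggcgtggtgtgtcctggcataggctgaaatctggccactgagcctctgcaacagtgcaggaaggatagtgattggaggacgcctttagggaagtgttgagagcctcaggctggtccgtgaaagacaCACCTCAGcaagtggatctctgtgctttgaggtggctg
The third is that of D330045A20Rik at chrX:139480117-139480416 on the plus strand, the gene now called Radx, whose product binds single-stranded DNA at replication forks. It is shown because it holds 3 of the 4 motifs.
D330045A20Rik: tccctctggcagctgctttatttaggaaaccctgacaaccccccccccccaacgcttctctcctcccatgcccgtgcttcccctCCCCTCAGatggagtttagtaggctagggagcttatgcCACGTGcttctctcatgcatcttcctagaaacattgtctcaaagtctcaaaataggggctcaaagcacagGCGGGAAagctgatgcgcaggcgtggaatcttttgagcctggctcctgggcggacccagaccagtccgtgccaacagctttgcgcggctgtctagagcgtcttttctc
The fourth is 1 of 2 windows of the long intergenic noncoding RNA 4933427D06Rik at chr6:89095860-89096159 on the plus strand, the noncoding member with the most counts. It has 1 match to CNCCTCAG and is shown for that, while the other window, at chr6:89100768-89101067, has none of the 4 motifs.
4933427D06Rik: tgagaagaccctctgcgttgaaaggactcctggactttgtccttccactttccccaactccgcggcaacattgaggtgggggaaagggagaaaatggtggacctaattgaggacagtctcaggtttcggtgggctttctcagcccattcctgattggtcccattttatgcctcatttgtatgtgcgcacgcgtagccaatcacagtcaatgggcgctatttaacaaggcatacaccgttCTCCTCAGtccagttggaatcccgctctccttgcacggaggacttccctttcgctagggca
The last set shows how little separates Gm12191 from the ribosomal protein gene Rpl30 and Gm10184 from the importin gene Kpna2. The windows are from the transcripts of GENCODE M21, with the differing base in capitals. Over 348 aligned bases Gm12191 and Rpl30 differ at 1 base, G96A, where the copy's base comes first and positions are counted from the start of the member's transcript.
Gm12191: gtgctgggctacaaAcagactctgaagat
Rpl30: gtgctgggctacaaGcagactctgaagat
Over 1968 aligned bases Gm10184 and Kpna2 differ at 2 bases, A829G and C874T. The first of them is shown.
Gm10184: aatcttacctggacGctttcaaacctttg
Kpna2: aatcttacctggacActttcaaacctttg

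The libraries were not equal within a group. The sKO libraries formed 2 sets: the chi-square per gene, which sampling noise alone would put near 1, was 6.32 between sKO-1 and sKO-2 and 3.86 between sKO-3 and sKO-4, but 18.4 to 22.4 across the sets, and 19.9 between WT-1 and WT-2. The n = 4 means and SDs therefore span libraries that stand apart. The targeted gene, Mdm2, was at 70.8 and 74.2 CPM in WT-1 and WT-2 and at 38.6, 48.2, 40.3 and 43.1 CPM in sKO-1 to sKO-4, or 58.7% of the WT mean. Every sKO library lay under both WT libraries, in a tissue that also holds cells not targeted. Of 26 genes that mark germ cells at large, 24 met the ratio that defined the members, with a median of 19.7% of WT left. Dazl, the germ cell RNA-binding protein with the highest level in that list, was at 229 and 152 CPM in the wild type against 46.7, 29.5, 28.1 and 42.0 CPM in the knockout (19.2%). The same ratio was met by 14 of 21 markers of differentiating spermatogonia (median 21.7%) and by 6 of the 15 markers of undifferentiated spermatogonia that reached 0.5 CPM (median 49.7%). The gene with the most counts in each of those lists is also used in somatic cells and did not meet it, Ccnd2 with 108% and Epha2 with 114%. None of 21 Sertoli, 11 Leydig, 10 endothelial, 10 macrophage or 5 erythroid markers met it, with medians of 95.6% to 136%, and 1 of 8 markers of peritubular muscle did, Cnn1 with 29.2%. All 26 germ cell genes were higher in WT-1 than in WT-2, by a median factor of 1.49. The summed level of that list was 1277 and 840 CPM in the wild type against 285, 190, 165 and 272 CPM in the knockout.

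The members were genes of modest level. Their mean WT level had a median of 2.21 CPM, from 0.549 CPM in B430306N03Rik to 93.7 CPM in Gm10184. Only 16 members reached 10 CPM, and 59 stayed under 2 CPM. CPM do not correct for length. Per kilobase of the longest transcript, the median WT level was 1.63 CPM in the members, 1.63 CPM in the 1991 Gm and Rik genes not selected, and 1.79 CPM in the 363 named genes that passed the same level and ratio. Summed over the members, the level was 852 and 591 CPM in WT-1 and WT-2 and 144, 97.1, 77.7 and 125 CPM in sKO-1 to sKO-4. A large part of that sum came from few genes, since Gm10184 and Gm12191 alone held 23.8% of its WT mean.

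A median of 20.6% of the WT level was left in sKO, with quartiles of 16.0% and 27.6%, where the named genes past the same thresholds had 21.8% and the Gm and Rik genes not selected had 99.2%. The median was 22.5% over sKO-1 and sKO-2 alone and 18.9% over sKO-3 and sKO-4 alone. In 116 of 121 members all 4 sKO libraries lay under both WT libraries, and in 105 of the 110 that passed the count filter, which also held for 15.2% of all genes that passed it. The 5 exceptions were Gm3608, Gm11868, Gm29289, Gm38356 and Gm44210. In edgeR's quasi-likelihood test over 17707 genes, with an adjusted p under 0.05, 44 of the 110 members that passed the count filter were called lower, beside 2.3% of all genes, and 0 higher, beside 0.124%. DESeq2 called 61 of 120 members lower and 0 higher, beside 652 and 82 of 19278 genes. By limma-voom 50 of 110 were lower and 0 higher, beside 446 and 18 of 17707 genes. An unadjusted p under 0.05 with edgeR was found for 99 of the 110, beside 2317 of 17707 genes. Since the ratio chose the members, nothing is read from those counts. Leaving out 1 library took the 44 to between 1 (without WT-1) and 29 (without sKO-4).

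**Figure D1:**
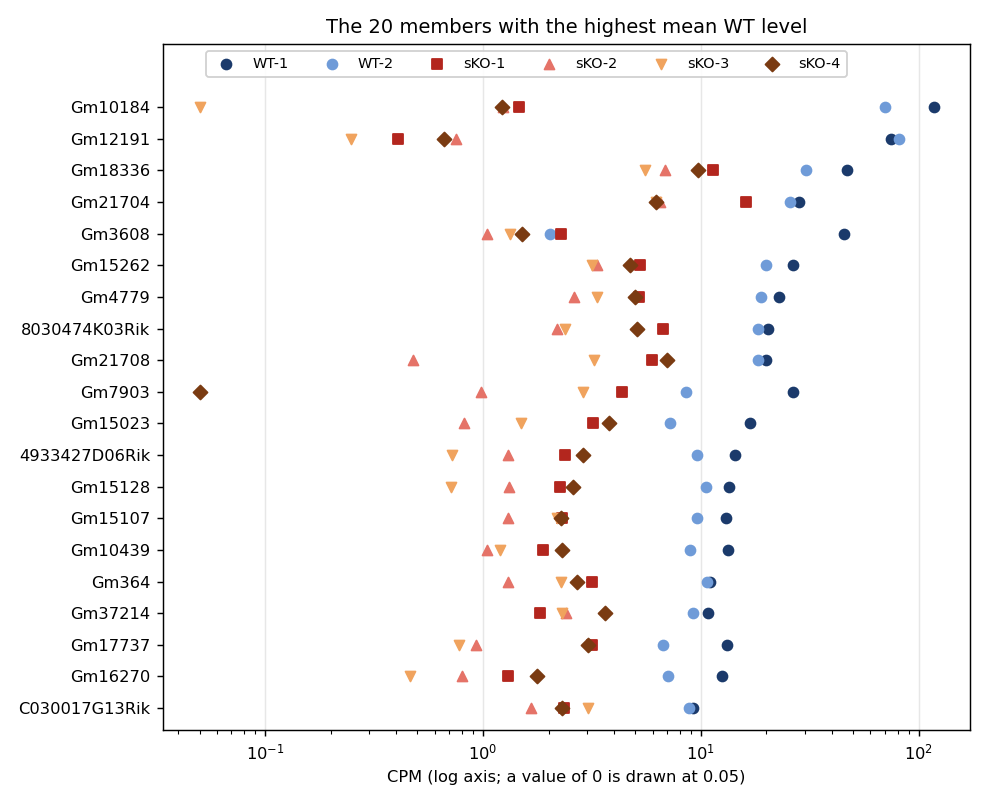
Level in CPM, on a log axis, of the 20 members with the highest mean WT level, 1 row each, with 1 point for each of the 2 WT and 4 sKO libraries; a value of 0 is drawn at 0.05. In 19 rows all sKO points lie left of both WT points, while in Gm3608 WT-2 lies among the sKO libraries.

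The order of libraries within a group is given as a description, since the choice used the same values. WT-1 was above WT-2 in 101 of 121 members, with a median ratio of 1.45. That ratio was 1.48 in the named genes past the same thresholds, 1.15 in the Gm and Rik genes not selected and 1.07 over all genes at 0.5 CPM. Among the knockouts, the median share of the WT mean was 23.1%, 17.5%, 13.4% and 23.0% from sKO-1 to sKO-4. Germ cell markers gave 24.1%, 16.1%, 14.5% and 25.7% in the same order. In both, sKO-1 and sKO-4 kept more than sKO-2 and sKO-3. Library sKO-3 was the lowest of the 4 in 45 members and the highest in 7, whereas sKO-1 was the highest in 52. Whether differing germ cell content between libraries sets this order was not tested.

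**Figure D2:**
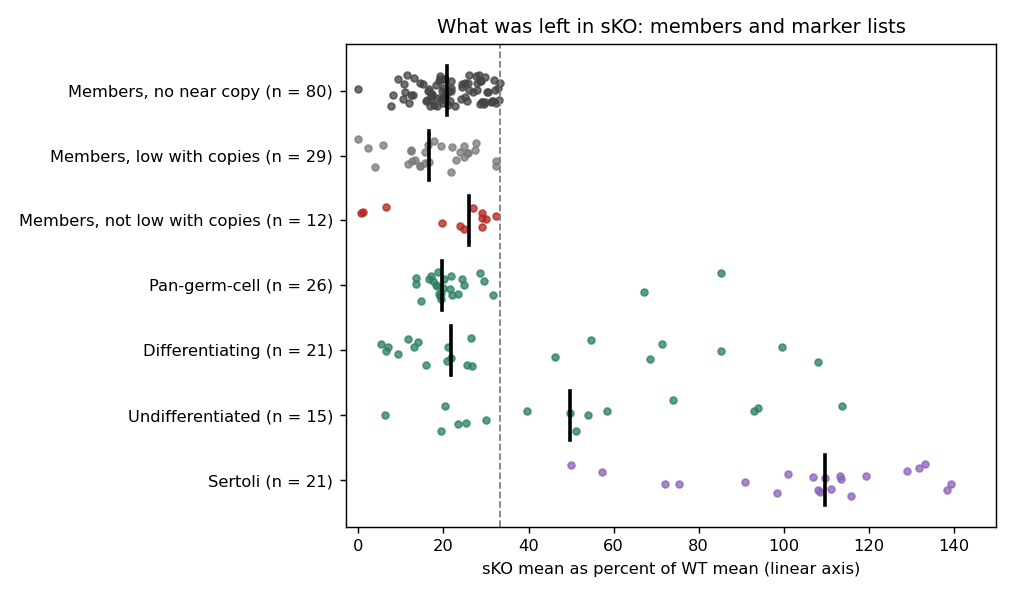
Mean level in sKO as a percent of the WT mean on a linear axis, 1 point per gene, for the members in 3 classes by their near copies and for 4 marker lists; black bars are medians and the dashed line is the ratio that defined the members. All members lie left of the line by construction, 24 of 26 pan-germ-cell genes lie there too, and no Sertoli gene does.

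Of the 16 members at 10 CPM or more, 10 were X-linked and annotated as protein-coding. By annotated kind, 54 members (44.6%) were protein-coding, 27 (22.3%) pseudogenes, 29 (24.0%) noncoding RNAs and 11 (9.09%) single-exon models to be experimentally checked. Among the Gm and Rik genes not selected, those shares were 19.5%, 15.2%, 46.8% and 18.3%. These kinds are those of GENCODE M21. RefSeq held 53 of the 54 protein-coding members and gave 7 of the 53 another kind, Gm18336, Gm10184 and Gm1141 among them. A median WT level of 3.89 CPM in the protein-coding members compares with 2.41 CPM in pseudogenes and 0.906 CPM in noncoding RNAs, not corrected for length. The X chromosome carried 36 members (29.8%), 29 of them protein-coding. It carried 2.21% of the Gm and Rik genes not selected, 16.3% of the named genes past the same thresholds and 3.69% of the named genes that were not low. The Y chromosome carried 5 members (4.13%) beside 0.402% of the Gm and Rik genes not selected. Each copy counts singly in these shares. With every copy family taken once, apart from a group joined only by the short Gm48789, 23 of 104 units (22.1%) were X-linked, and of the 80 members with no near copy 16 were (20%). With WT-2 left out the selection grew to 263 genes, of which 54 (20.5%) were X-linked.

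**Figure D3:**
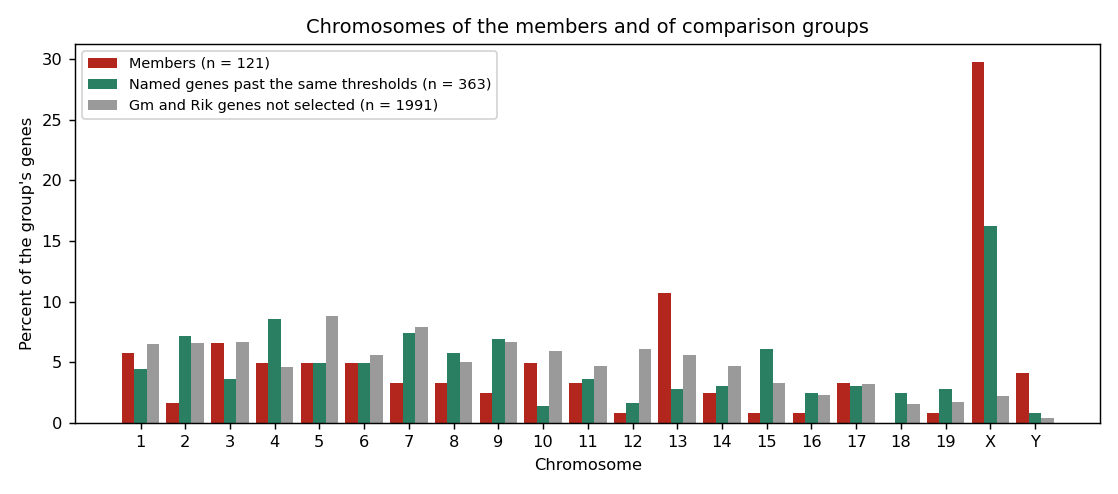
Percent of genes on each chromosome, from the annotation, for the 121 members, the 363 named genes that passed the same level and ratio, and the 1991 Gm and Rik genes that did not pass the ratio. The X chromosome holds 29.8%, 16.3% and 2.21% of the 3 groups.

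Single X-linked genes with no near copy, as defined below, were looked at first. The counts of Gm15262 and Gm364 were whole in all libraries. Those of Gm18336 were not, so some of its reads may have been shared with other genes. Gm18336, a gene of 1 exon that RefSeq lists as a pseudogene, was at 46.8 and 30.3 CPM in the wild type against 11.4, 6.82, 5.55 and 9.71 CPM in the knockout. Its mean was 38.6 ± 11.6 CPM (SD, n = 2) in the wild type against 8.37 ± 2.66 CPM (SD, n = 4) in sKO, so that 21.7% was left and the groups did not overlap. Gm15262, with 15 exons, was at 26.6 and 19.9 CPM in the wild type against 5.27, 3.33, 3.17 and 4.75 CPM in the knockout (17.8% left). All 4 sKO values lay far under both WT values. Gm364, with 17 exons, was at 10.995 and 10.6 CPM in the wild type against 3.15, 1.31, 2.28 and 2.71 CPM in the knockout (21.8% left). This gene was nearly equal in the 2 wild-type libraries.

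Gm4779 and 8030474K03Rik start from the same stretch of X chromosome in opposite directions, and no other pair of members does so. Gm4779 was at 22.9 and 18.9 CPM in the wild type against 5.19, 2.62, 3.34 and 4.98 CPM in the knockout (19.3% left). 8030474K03Rik was at 20.3 and 18.4 CPM in the wild type against 6.72, 2.18, 2.38 and 5.08 CPM in the knockout (21.1% left). Their longest transcripts are both 1991 bases, and per kilobase the WT levels were 10.5 and 9.72 CPM. In both genes sKO-1 and sKO-4 were the higher knockouts. The shared window has 22 CpG dinucleotides in the frame of either gene, with an observed-to-expected ratio of 0.752 for Gm4779 and 0.761 for 8030474K03Rik, and its 290 shared bases are printed above.

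Further X-linked members are listed under other names as well. D330045A20Rik (Radx) was at 10.6 and 7.38 CPM in the wild type against 2.77, 1.25, 1.39 and 1.55 CPM in the knockout (19.4% left). Gm1141, also listed as Pasd1, is protein-coding in GENCODE and a long noncoding RNA in RefSeq. It was at 5.85 and 4.46 CPM in the wild type against 1.69, 0.764, 0.334 and 1.38 CPM in the knockout (20.2% left). Gm595, now Fsip2l, a relative of a sperm fibrous sheath protein, was at 4.92 and 4.46 CPM in the wild type against 1.85, 0.436, 0.889 and 1.38 CPM in the knockout (24.3% left). 1700013H16Rik, also Slx2 or Xlr6, belongs to an X-linked lymphocyte-regulated family whose relatives act in spermatogenesis. It was at 3.23 and 1.82 CPM in the wild type against 0.326, 0.273, 0.0556 and 0.166 CPM in the knockout (8.13% left). In these 4 genes each sKO library lay under both WT libraries. Away from the X, 4933416C03Rik on chromosome 10 is now Taf7l2, a single-exon relative of the TFIID subunit gene Taf7l. Its level was 3.44 and 1.79 CPM in the wild type against 0.544, 0.327, 0.0556 and 0.442 CPM in the knockout (13.1% left).

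Of the 121 members, 41 had a near copy, defined after the data were seen as another gene whose transcript matched in the same orientation with at least 95% identity over at least 80% of the member's longest transcript. Their values were set beside the sum over all copies, which tells something about a member only where the member is a sizeable part of it. In 29 the sum was low as well, with a median of 18.4% left (14.7% to 33.3%), and 20 of the 29 were X-linked. In the other 12 the sum was not low, with a median of 98.8% (69.7% to 107%), and none of the 12 was X-linked. None of the 12 made up more than 57.3% of its WT sum. Loss of the member alone, with unchanged copies, would thus have left each sum above the ratio. The class therefore does not show whether a member fell. The 80 members with no near copy had a median of 20.9% left, close to the 20.6% of the whole group.

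The 3 low families with the highest sums were multicopy genes of the sex chromosomes. The largest held 10 members, all X-linked (Gm15128, Gm15107, Gm10439, Gm15127, Gm15091, Gm15097, Gm15085, Gm15109, Gm15080 and Gm15114), and with the named genes Luzp4 and Ott (ovary testis transcribed) it had 13 genes, with identities between members and copies of 95.6% to 100%, the latter between Gm15085 and Ott. Their summed level was 98.5 and 73.7 CPM in the wild type against 17.8, 9.87, 9.78 and 17.9 CPM in the knockout. The mean went from 86.1 ± 17.5 CPM (SD, n = 2) to 13.8 ± 4.61 CPM (SD, n = 4), 16.1% of WT. How single copies share that sum is an estimate. Gm15109, at 2.16 and 4.53 CPM in WT, was at 0 in all 4 sKO libraries. This was at least 20.3-fold lower against a floor of 3 counts per library. That bound covers counting error only, not the division of shared reads among the copies. Gm15080, at 4.58 and 2.01 CPM in WT, was at 0.155, 0, 0.143 and 0 CPM in the knockout (2.27% left). Gm15128 was at 13.4 and 10.5 CPM in the wild type against 2.27, 1.32, 0.714 and 2.59 CPM in the knockout. Gm15107 was at 13 and 9.61 CPM in the wild type against 2.30, 1.31, 2.18 and 2.29 CPM in the knockout, and Gm10439 at 13.3 and 8.96 against 1.88, 1.04, 1.20 and 2.31 CPM. These copies with more counts all kept 14.4% to 17.8%, near the value of the sum.

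Rbmy, a Y-linked gene family, encodes an RNA-binding protein made in male germ cells. It supplied 5 members (Gm21704, Gm21708, Gm21677, Gm4064 and Gm29289) of 10 genes, with identities between members and copies of 99.1% to 100%. The summed level was 111 and 94.1 CPM in the wild type against 41.2, 17.4, 19.3 and 29.8 CPM in the knockout, 102 ± 11.7 (SD, n = 2) against 26.9 ± 10.9 CPM (SD, n = 4), or 26.3%. Library sKO-1 held the most and sKO-2 the least. Gm21704 was at 28.2 and 25.7 CPM in the wild type against 16.1, 6.47, 6.25 and 6.21 CPM in the knockout (32.5% left), so that sKO-1 stood well above the other knockouts. Gm21708 was at 19.9 and 18.2 CPM in the wild type against 5.94, 0.480, 3.24 and 7.02 CPM in the knockout (21.9% left). The named gene Rbmy, which it matches at 100% identity, had the same value in every library, so the pair carries 1 measurement. The estimates for single copies thus did not keep a common order of knockouts, while the sum of the copies separated the groups.

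**Figure D4:**
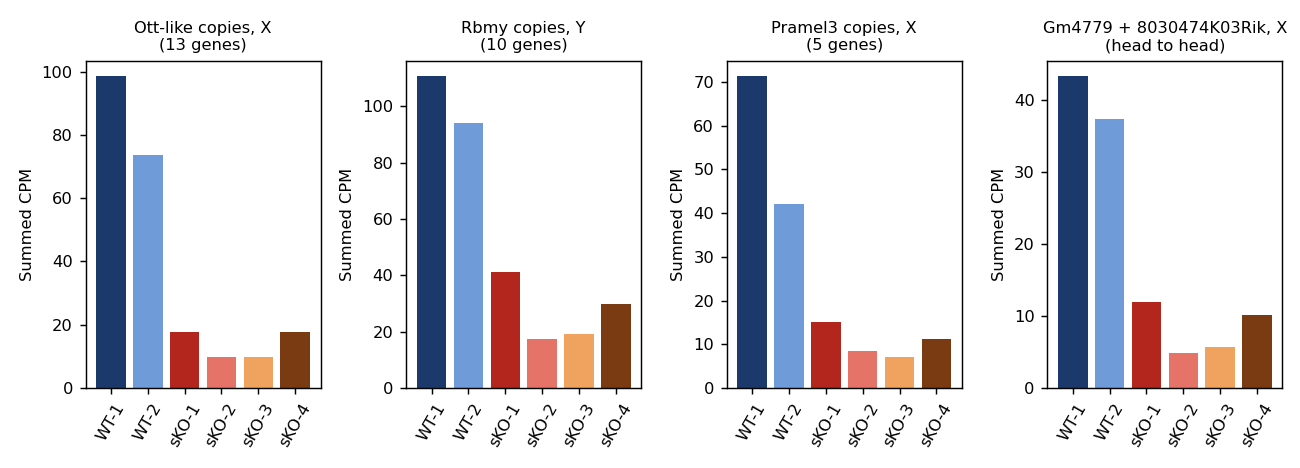
Summed level in CPM per library, on linear axes from 0, for the Ott-like copies, the Rbmy copies, the Pramel3 copies and the head-to-head pair Gm4779 and 8030474K03Rik. All 4 sKO bars lie under both WT bars in each panel, with 9.78 to 17.9 CPM against 73.7 and 98.5 CPM in the Ott-like panel.

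The third family is related to Pramel3, one of the PRAME-like genes, which are expressed in gametes and their precursors. Its members Gm7903 and Gm15023 and their copies, 5 X-linked genes in all, summed to 71.3 and 42.1 CPM in the wild type against 15, 8.57, 7.0 and 11.1 CPM in the knockout (18.4% left). Gm7903 alone was at 26.6 and 8.51 CPM in the wild type against 4.37, 0.978, 2.89 and 0 CPM in the knockout, and Gm15023 at 16.8 and 7.23 CPM and at 3.20, 0.822, 1.49 and 3.79 CPM. Gm7903 was at 0 in sKO-4, the knockout in which Gm15023 was highest. In 2 pairs of members, Gm1140 with Gm14692 and Gm15015 with Gm15020, all 6 counts were identical, so each pair carries 1 measurement.

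The 12 members whose sums were not low included 3 of the 5 with the most counts. Gm12191, the processed pseudogene on chromosome 11 that differs from Rpl30 at 1 base, was at 74.9 and 81.6 CPM in the wild type against 0.407, 0.754, 0.248 and 0.663 CPM in the knockout (0.663% left). Rpl30 itself was at 266 and 290 CPM in the wild type against 398, 383, 370 and 372 CPM in the knockout. The difference of sKO minus WT was -77.7 CPM for Gm12191 and 103 CPM for its 12 copies together. Their sum with Gm12191 was 357 ± 22.4 CPM (SD, n = 2) in the wild type against 381 ± 12.9 CPM (SD, n = 4) in sKO, 107% of WT. Gm12191 showed a smaller remainder than every gene of the marker lists at 0.5 CPM, where the lowest was Esx1 with 5.22%.

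Gm3608, a pseudogene on chromosome 1 that matches the actin-capping gene Capza1 at 99.5%, was high in a single library, WT-1. It was at 45.6 CPM in WT-1, 2.03 CPM in WT-2 and 2.27, 1.04, 1.34 and 1.52 CPM in the knockout. Capza1 was at 129 CPM in WT-1, 182 CPM in WT-2 and 191, 174, 167 and 179 CPM in the knockout. The library with much Gm3608 was thus the one with little Capza1, and their sum was 179 ± 7.28 CPM (SD, n = 2) in the wild type against 179 ± 10.5 CPM (SD, n = 4) in sKO, 99.97% of WT.

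Gm10184, a gene of 1 exon on chromosome 17 that is 99.9% identical to Kpna2, was at 117 and 70.3 CPM in the wild type against 1.46, 1.23, 0 and 1.22 CPM in the knockout (1.04% left). Kpna2, the importin that carries proteins into the nucleus, was at 89.6 and 71.7 CPM in the wild type against 151, 135, 98.4 and 97.5 CPM in the knockout. The sum was 174 ± 45.8 CPM (SD, n = 2) in the wild type against 122 ± 27.3 CPM (SD, n = 4) in sKO, 69.7% of WT, and WT-2 lay between the sKO libraries. In these 3 pairs the mean of the named copy was higher in sKO than in WT. How far the division of shared reads set the members' values was not tested.

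**Figure D5:**
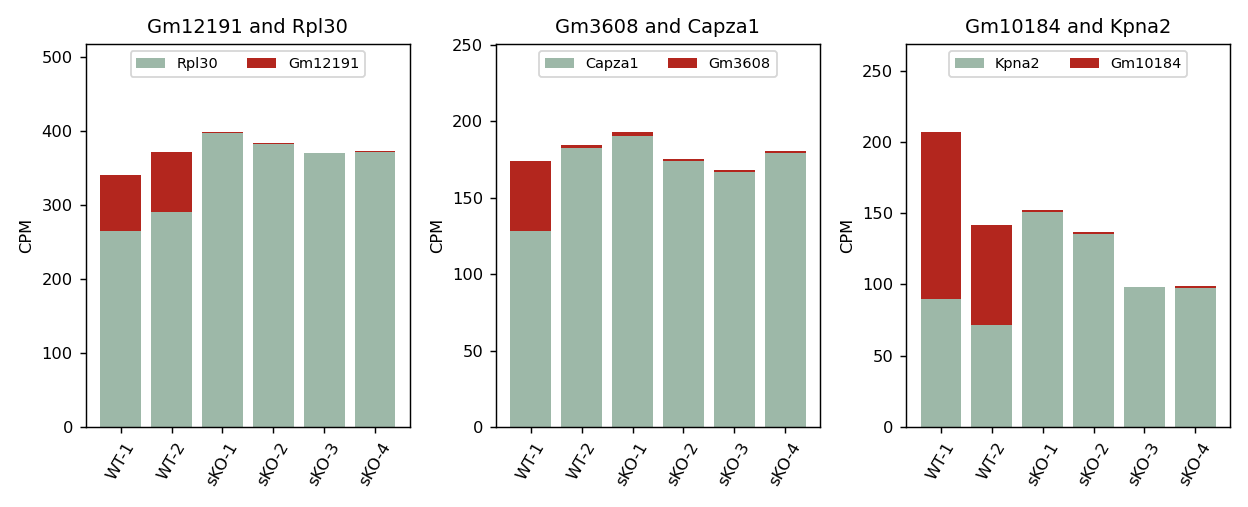
Stacked CPM per library, on linear axes from 0, of 3 members (red, on top) and their named copies (green): Gm12191 with Rpl30, Gm3608 with Capza1 and Gm10184 with Kpna2. The red part nearly vanishes in all 4 sKO libraries, and in WT-2 for Gm3608, while the full bars of the first 2 pairs stay at 107% and 99.97% of WT.

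The other 9 were Gm48789, Gm7049, Gm9803, Gm11868, Gm38356, Gm3417, Gm40977, Gm15753 and Gm13135. In several of them the member is too small a part of the sum for the sum to say much, such as 0.561% for Gm7049 beside the malic enzyme gene Me1 and 0.0919% for Gm48789, a stretch of 129 bases that matched 92 other genes. In Gm9803 it was 57.3% of the sum with Pam16, a subunit of the mitochondrial import motor. Gm9803 was at 6.21 and 4.08 CPM in the wild type against 1.65, 2.64, 0 and 1.68 CPM in the knockout, while Pam16 was at 4.05 and 3.62 CPM and at 4.56, 5.26, 5.62 and 4.02 CPM. Gm7049 and Gm11868 each had a single knockout near the WT level, sKO-2, with 4.44 CPM against 5.32 and 5.14 CPM in WT, and 3.36 CPM against 3.39 and 2.97 CPM. Counts were whole numbers within 0.005 in all 6 libraries for 31 members, and all 31 were among the 80 with no near copy. The rest of those 80, Gm18336, Gm4779 and 8030474K03Rik among them, had counts that were not all whole. Having no near copy thus does not mean that no read was shared.

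Noncoding members were fewer in counts and spread over the autosomes, with 2 of 29 on the X. 4933427D06Rik on chromosome 6, the intergenic RNA with a window printed above, was at 14.4 and 9.64 CPM in the wild type against 2.39, 1.31, 0.723 and 2.87 CPM in the knockout (15.2% left), with no overlap between groups. Gm37214, a sense-intronic RNA on chromosome 1, was at 10.7 and 9.22 CPM in the wild type against 1.84, 2.39, 2.31 and 3.63 CPM in the knockout (25.5% left). C030017G13Rik on chromosome 5, a model to be experimentally checked, was at 9.24 and 8.86 CPM in the wild type against 2.36, 1.67, 3.04 and 2.31 CPM in the knockout (25.9% left). Here sKO-3 was the highest knockout, which was so in only 7 members. Gm37376, another such model on chromosome 19, was at 2.43 and 1.20 CPM in the wild type against 0 in all 4 sKO libraries. Against the same floor it was at least 11.0-fold lower. Its counts were not all whole, and that bound covers counting error only, not the division of shared reads. Median remainders by kind were 24.2% in noncoding RNAs, 25.9% in models to be checked, 20.3% in protein-coding members and 18.4% in pseudogenes.

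Among pseudogenes with no near copy, Gm17737 on chromosome 7 was at 13.2 and 6.72 CPM in the wild type against 3.15, 0.927, 0.778 and 3.04 CPM in the knockout (19.8% left). Gm16270 on chromosome 10 was at 12.6 and 7.05 CPM in the wild type against 1.3, 0.800, 0.464 and 1.77 CPM in the knockout (11.1% left). Its locus overlaps Stab2, a scavenger receptor gene of endothelial cells, on the other strand. Stab2 was at 3.72 and 1.93 CPM in the wild type against 0.652, 0.546, 0.556 and 0.719 CPM in the knockout (21.9% left). The 10 endothelial markers had a median of 114% left. Without knowledge of the strand used in counting, reads of the 2 genes cannot be told apart.

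Neighbours were looked at in head-to-head and antisense positions. Named protein-coding genes overlapped 8 members on the other strand and started within 1000 bases head to head with another 8, and none of these 16 neighbours was in a germ cell list. The ratio of the members was met by 4 of the 16. Of these, Xlr5a and Stab2 also reached 0.5 CPM on average in WT. Over all genes at 0.5 CPM in both WT libraries, 3.08% met it, and the difference was not tested. Neighbours on the same strand were not compared. Of the head-to-head neighbours, the gene with a large difference and a sizeable level was Eif5a2, a translation factor gene beside 1700112D23Rik. Eif5a2 was at 53.2 and 49.7 CPM in the wild type against 14.8, 17.8, 26.7 and 29.2 CPM in the knockout (42.9% left), and 1700112D23Rik kept 29.6% of a WT mean under 1 CPM. The mitochondrial calcium uptake gene Micu2 was at 107% beside 3110083C13Rik with 20.5%. The ribosomal protein gene Rps3a1 was at 105% beside Gm37933 with 21.6%. Among antisense pairs, Xlr5a kept 19.5% beside Gm14685 with 4.01%, and Sfmbt2, a polycomb gene, kept 49.2% beside Gm13261 with 25.1%. Eif5a2, Xlr5a and Sfmbt2 were singled out after their values were seen.

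Promoter windows were found for 61 members, and a gene counts where any of its windows holds a match. CNCCTCAG stood in 14 of them (23.0%), beside 9.12% of all 27025 genes with a window and 7.72% of the other 10387 Gm and Rik genes with one. With each copy family counted once it stood in 8 of 48 (16.7%), since the near-identical Ott-like windows supply several matches. CACGTG stood in 9 members (14.8%, or 7 of 48 with families once) beside 8.09% of all genes, and TTCCCGC in 3 (4.92%) beside 5.29%. TGACGTCA stood in none of the 61, beside 2.03% of all genes. Of core elements, CCAAT stood in 40 (65.6%) beside 41.1%, GGGCGG in 23 (37.7%) beside 38.2% and TATAAA in 2 (3.28%) beside 15.7%. ACANTGT, a core of DMRT factor sites, stood in 5 (8.20%) beside 8.62%. A CpG ratio of 0.6 or more, which alone does not define a CpG island, was present in 11 of 61 members (18.03%). It was present in 14.8% of those other Gm and Rik genes and 38.4% of all genes. Both strands were searched, a match is only a run of letters, and none of these shares was tested.

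Genes at the edges of the choice had like values. Just inside the ratio stood Gm12031 with 32.9%, Gm48610 with 33.1% and C330022B21Rik with 33.31% of WT, and just outside it Gm26621 with 33.34%, Gm3376, an Rbmy copy, with 33.38%, and 4921534A09Rik with 33.6%. At the level threshold, the lower WT library was at 0.501 CPM in Gm7896 and Gm12031 and 0.511 CPM in Gm42729, and at 0.497 CPM in Gm9785 and 0.498 CPM in Gm42633 and C330024D21Rik, which were left out.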

How the data were processed

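Whole-testis polyadenylated RNA was sequenced in 6 libraries, grouped by title and genotype label into 2 wild-type (WT) and 4 knockout (sKO) libraries. The design text counts 3 per group; the labels were followed. The authors deposited expected counts, estimates that need not be whole, for 57170 identifiers. The submitters' processing notes name fastp, STAR, RSEM and mm39, with versions, annotation and strand setting not given in the sources used here. Since RSEM splits a read among all genes it fits, values of near-identical copies are uncertain. Symbols, kinds, exons, chromosomes, neighbours and transcripts came from GENCODE M21 on GRCm38, which matched 51794 identifiers (90.6%, holding 99.2% of counts). Because the counts use another build, coordinates are given for RefSeq promoter windows of GRCm38.p6 only. RefSeq held 90 members, 6 of them under another symbol. All columns had a sample.

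CPM used the column sums, 17.99 M to 18.39 M (mega), at which a single count is 0.0544 to 0.0556 CPM. The members had a median WT level of 2.21 CPM, and a median of 20.6% was left in sKO. Counting error is therefore sizeable for many members, above all in sKO. Libraries of a group differed by more than sampling noise, and none were pooled. The members, lists, motifs and tests were chosen with earlier results of these data known. Members named with values were the 20 with the highest WT mean, the 5 with the lowest ratio and those at the thresholds. Radx, Pasd1, Fsip2l, Slx2, Taf7l2, family members, members with copies and neighbours were named after their values were seen.

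Expected counts were rounded for edgeR 4.0.16 (R 4.3.3; filterByExpr with a minimum count of 10, TMM, quasi-likelihood test, two-sided, Benjamini-Hochberg adjustment, threshold 0.05); 17707 genes passed. The p-values measure the spread between libraries, which may be technical, as the labels do not name separate animals. Copies were found with BLAST 2.17.0. Alternatives were DESeq2 1.42.0, limma-voom (limma 3.58.1), other size factors, filters, thresholds and left-out libraries. On simulated counts of 17707 genes for sKO against WT, the test called 22 of 50 genes lowered 2-fold, 36 of 50 lowered 4-fold, 32 of 50 lowered 5-fold and 41 of 50 lowered 8-fold, with 9 false calls.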

Additional observations from a re-analysis of the deposited data

Results flagged for a closer look

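Among 29 named genes, the 4 sKO values held a library far from the other 3 in 4 cases, by Dixon's gap ratio at the 95% level, where chance flags about 1 in 20 groups. Gm10184 was at 0 CPM in the knockout-3 and at 1.22 to 1.46 CPM in the other knockouts. Gm21704, an Rbmy copy, was at 16.05 CPM in the knockout-1 and at 6.21 to 6.47 CPM elsewhere. The Ott-like Gm15107 was at 1.309 CPM in the knockout-2 and at 2.18 to 2.30 CPM elsewhere. 4921534A09Rik, just outside the ratio threshold, was at 0.1183 CPM in the knockout-4 and at 0.439 to 0.503 CPM elsewhere. The first 3 have near-identical copies.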

How the results depend on the processing

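The number of members (121) became 79 with 1 CPM, 193 with 0.25 CPM, 200 with a ratio of 0.5 and 79 with a ratio of 0.25, and ran from 112 to 263 with 1 library left out. Without WT-2 it was 263, and without WT-1 it was 143, of which 91 were shared with the 121. TMM scaling gave 120, rounded counts 114 and RefSeq symbols 84. The genes called lower over the whole table (408) became 652 with DESeq2 and 1 to 225 with 1 library left out (1 and 193 for WT-1 and WT-2, then 176, 103, 150 and 225 for the knockouts in order). The members among them (44) became 24 of 38 tested at 1 CPM in 4 libraries, 66 of 121 with no filter, and 1 to 29 with 1 library left out (1, 17, 22, 12, 20 and 29 in the same order). Over all genes, 324 of 15073 were called lower at 1 CPM in 4 libraries and 541 of 32550 with no filter. A lone WT library was taken to vary as the knockouts do.

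The replicate numbers did not pair the libraries, with correlations of deviations of 0.41 (number 1) and -0.44 (number 2). In a group of 2 libraries, the deviations of WT-2 are those of WT-1 with the sign reversed. WT-1 thus varied with both sKO-1 and sKO-2, which a block by number does not capture. With the replicate block on the 4 libraries numbered 1 and 2, 268 genes and 34 members were called lower, and 187 genes and 20 members without it. The median log2 ratio of the members, -2.28, was -1.44 with 0.5 CPM added to both means and -2.50 to -1.97 with 1 library left out. Using only sKO-1 and sKO-2 it was -2.16, and only sKO-3 and sKO-4 -2.41, a split chosen after seeing the data. The copy-sum class held 12 members at 98% identity and 10 at 95% coverage. Of the alternatives not printed here, each kept its count within 1.5 times or its median within 1 SD. For members near 1 CPM, about 18 counts in a library, counting error limits the ratio.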

Other observations

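Beside the members, 530 identifiers that matched no symbol reached 0.5 CPM in both WT libraries, and 21 of them also met the ratio. Of these 21, 15 are not Ensembl identifiers. The one with the highest level, novel11, was at 39.4 and 31.9 CPM in the wild type against 10.1, 6.2, 6.45 and 14 CPM in the knockout (25.7% left), and novel822 was at 22.5 and 19.4 CPM in the wild type against 6.14, 6.61, 4.6 and 6.57 CPM in the knockout (28.5% left). Their WT levels lie within those of the 10 members with the most counts. The sources used here do not say what these identifiers are.

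Chromosome 13 held 13 members (10.7%), beside 5.63% of the Gm and Rik genes not selected and 2.75% of the named genes past the same thresholds. 2410141K09Rik, the one with the most counts there, was at 8.28 and 2.47 CPM in the wild type against 1.41, 0.952, 0.892 and 0.311 CPM in the knockout (16.6% left). The others included Gm10324 (21.8% left), Gm10323 (19.8% left) and Gm7896 (17.4% left). These 4 have no near copy at 95% identity, but their counts were not all whole.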
